A study of Rattus norvegicus with 6 samples.

Results

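LEGLTBC (NONRATT003679.2) is a long non-coding RNA (lncRNA) that the study named for its low expression in beta cells under glucolipotoxicity, and NONRATT001644.2 is the listed lncRNA closest to it on the chromosome. The pair was selected on measured values of the contrast described here, since LEGLTBC came to the study's attention among the lncRNAs that differed in it, before cell assays singled it out, and NONRATT001644.2 was added with its own values known. Their difference between conditions is therefore given as a description, with no test. They were set against the 12 other lncRNAs listed between 244.7 and 245.8 Mb of chromosome 1 of the rat genome Rnor_6.0, a window of 1100 kb. The window thus held 14 of the 2275 lncRNAs listed on chromosome 1 and of the 18649 listed in all. The 12 neighbours were taken by position within this window and were tested. The window itself was set with earlier results of these data known, so these tests are not blind to the values.

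RNA-Seq was performed on INS-1 cells, a line from a rat insulinoma that still makes and secretes insulin and stands in for beta cells in culture. The 3 control samples (Con) were kept in RPMI growth medium with about 11 mM glucose, and the 3 treated samples (HG/PA) received 25 mM glucose with 0.5 mM palmitate bound to albumin for 24 h. Whether the Con medium held the albumin carrier is not given in the sources used here. All 6 samples come from this single tumour line (labelled strain Wistar), so they hold none of the other cells of an islet. The study describes the sequencing as a biological triplicate. The tables hold lncRNAs, and the insulin genes and other protein-coding markers of the beta cell were not analysed here.

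High glucose together with a saturated fatty acid such as palmitate damages beta cells, a state called glucolipotoxicity that is marked by oxidative stress and apoptosis. LncRNAs are transcripts without a known protein product, and many are read from the DNA close to other transcription units. One way in which a cytoplasmic lncRNA can act is as a competing RNA that holds a microRNA away from its messenger RNA targets, and the study asked whether LEGLTBC does so for miR-34a, a microRNA known to repress the deacetylase SIRT1. The mature miR-34a of the rat is shown here because it is the partner around which LEGLTBC was followed up, with its seed (bases 2 to 8, the part that pairs with a target) in capitals. It lies on chromosome 5 of assembly GRCr8, on the plus strand from 165815971 to 165815992, per RefSeq.
rno-miR-34a-5p: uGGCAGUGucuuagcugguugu
In the RefSeq table used, 5 mature rat miRNAs carry this seed, namely miR-34a, miR-34b, miR-34c, miR-449a and miR-449c, each as its 5p arm. No miRNA was measured in these libraries, and the sequence of LEGLTBC itself was not analysed here.

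LEGLTBC lies at chr1:245235678-245236805 and its length of 1128 nt equals its genomic span, so the annotation gives it no intron. NONRATT001644.2, at chr1:245237348-245237667, is also unspliced and is 320 nt long. A gap of 542 nt separates them, and no other listed lncRNA overlaps either. The next listed lncRNA on that side is NONRATT001645.2 at chr1:245272301-245273686, an unspliced transcript of 1386 nt that begins 35.5 kb beyond the end of LEGLTBC. On the other side the nearest is NONRATT001641.2, at a distance of 456.1 kb. LEGLTBC, NONRATT001644.2 and NONRATT001645.2 therefore form a group of 3 that stands apart from the rest of the listed neighbourhood. The remaining lncRNAs lie in 5 spliced or unspliced transcripts between 456.1 and 507.5 kb away on one side and 6 between 234.7 and 276.3 kb away on the other. The files give no strand, exon positions or gene names, so whether these transcripts are read in one direction, and which genes lie among them, cannot be stated here.

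The FPKM of LEGLTBC (its fragments divided by its length and by the library's total) was 5.73, 5.18 and 5.17 in Con 1, 2 and 3 and 1.33, 0.907 and 0.874 in HG/PA 1, 2 and 3. Every HG/PA sample thus lay below every Con sample, an order that 16.2% of the 17558 tested lncRNAs had. Within the HG/PA group the first sample was the highest. These values rested on 89, 73 and 73 fragments for Con and on 19, 14 and 13 for HG/PA, recovered from the whole steps on which the values fall. In bulk RNA, a lower level per cell and fewer cells that express the transcript cannot be told apart. Pooled over the samples, the Con rate was 5.21 times the HG/PA rate (exact 95% interval 3.78 to 7.31, counting error only). The fitted log2 fold change on the log2(FPKM + 0.1) scale was -2.28 (standard error, SE, 0.22, n = 3 and 3), a scale that understates changes of low values.

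Replicates of LEGLTBC varied about as much as, or less than, the number of fragments alone would give. The coefficient of variation of its FPKM was 6.0% in Con, where counting alone gives 11.3%, and 24.6% in HG/PA, where counting alone gives 25.5%. Its mean level in Con, 5.36 ± 0.32 FPKM (SD, n = 3), was above that of 81.8% of the lncRNAs listed on chromosome 1. In HG/PA its mean of 1.04 ± 0.25 FPKM (SD, n = 3) was above that of 42.8% of them. LEGLTBC was thus among the better expressed lncRNAs of the chromosome in control cells and near the middle of the range in treated cells. Even there it stayed above the level that 3 fragments give, which is between 0.19 and 0.21 FPKM for a transcript of its length. By the size of its log2 fold change it ranked 10 from the lowest among the 2121 lncRNAs of chromosome 1 that passed the filter on low values. Since LEGLTBC was selected on this contrast, its rank is a description only.

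NONRATT001644.2 had nearly the same level per length as LEGLTBC in control cells. Its FPKM was 4.77, 4.75 and 4.49 in Con 1, 2 and 3 and 2.47, 2.05 and 0.948 in HG/PA 1, 2 and 3. The groups did not overlap here either, in the order that 16.2% of all tested lncRNAs had. The HG/PA samples were spread more widely than for LEGLTBC, with HG/PA 3 the lowest. Because the transcript is short, these values rested on only 21, 19 and 18 fragments for Con and 10, 9 and 4 for HG/PA. The pooled Con rate was 2.57 times the HG/PA rate (exact 95% interval 1.56 to 4.37, counting error only), and the fitted log2 fold change was -1.41 (SE 0.34). This value depended on HG/PA 3, without which it was -1.02. The level of NONRATT001644.2 divided by that of LEGLTBC was between 0.83 and 0.92 in the Con samples and between 1.08 and 2.27 in the HG/PA samples. The lower level under HG/PA was thus less marked in NONRATT001644.2 than in LEGLTBC in these samples, a difference that was not tested because both were chosen on this contrast.

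**Figure D1:**
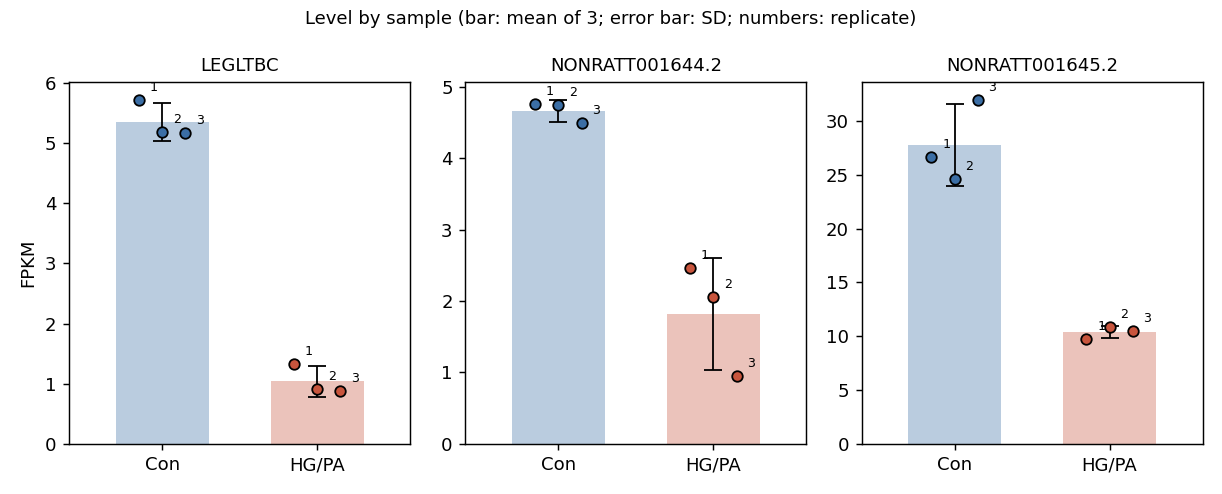
FPKM of LEGLTBC, NONRATT001644.2 and NONRATT001645.2 in the 3 Con and 3 HG/PA samples, with points for samples (numbered by replicate), bars for the group mean and error bars for the SD, each panel on its own linear axis from 0. In each panel all HG/PA points lie below all Con points, an order that 16.2% of all tested lncRNAs had. NONRATT001645.2 has by far the highest level, with a Con mean of 27.8 FPKM.

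NONRATT001645.2 was the only tested neighbour at least 2-fold lower in HG/PA at an unadjusted p below 0.05 by limma. It was also the most highly expressed lncRNA of the window. Its FPKM was 26.7, 24.6 and 32.0 in Con 1, 2 and 3 and 9.75, 10.9 and 10.4 in HG/PA 1, 2 and 3. The lowest Con sample was thus more than double the highest HG/PA sample. The values rested on 509, 426 and 556 fragments for Con and 171, 206 and 191 for HG/PA, many more than for LEGLTBC. Its mean was 27.8 ± 3.83 FPKM in Con and 10.4 ± 0.56 FPKM in HG/PA (SD, n = 3 each). The log2 fold change was -1.41 (SE 0.12, 95% interval -1.69 to -1.12), with an adjusted p of 0.0049 by limma and lower values in 3 of 3 HG/PA samples. Across all lncRNAs that entered the fit the median of this value was -0.11, relative to which NONRATT001645.2 was at -1.29. Its Con level exceeded that of 98.2% of the lncRNAs listed on chromosome 1, and its HG/PA level that of 92.5%. No function of NONRATT001645.2 is given in the files.

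The levels of NONRATT001645.2 and LEGLTBC did not keep one ratio. NONRATT001645.2 was between 4.65 and 6.20 times as high as LEGLTBC per length in the Con samples and between 7.32 and 12 times as high in the HG/PA samples. Of all fragments on the 14 lncRNAs of the window, LEGLTBC held 7.74% ± 0.68 in Con and 2.69% ± 0.74 in HG/PA (SD, n = 3 each). NONRATT001645.2 held 49.0% ± 4.20 in Con and 32.9% ± 1.19 in HG/PA. The share on the other 11 neighbours was correspondingly higher in HG/PA, at 63.1% ± 1.42 against 41.3% ± 3.59 in Con. These shares do not depend on how the samples were scaled to each other.

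The question for the neighbours was whether the lncRNAs around LEGLTBC differed between conditions as well. Of the 12 neighbours, 11 reached 0.1 FPKM in 3 or more samples and entered the limma fit of 17558 lncRNAs. Only NONRATT001645.2 differed by 2-fold or more at an unadjusted p below 0.05, where 3.90% of all tested lncRNAs were past it in the lower direction. With a Benjamini-Hochberg adjusted p below 0.05 in place of the unadjusted p, it was again that 1 neighbour, against 0.832% of all tested lncRNAs. The 146 lncRNAs behind that share became 46, 37 and 37 without Con 1, 2 or 3 and 52, 53 and 88 without HG/PA 1, 2 or 3, while NONRATT001645.2 passed in each of these 6 fits. In the higher direction 0 neighbours passed either threshold, where 2.59% (unadjusted) and 0.655% (adjusted) of all tested lncRNAs did. The median log2 fold change of the 11 tested neighbours was -0.06, and of the other 10 it was -0.04, against -0.11 over the whole fit. Of the 11, 7 had a log2 fold change below 0 and 4 above 0.

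**Figure D2:**
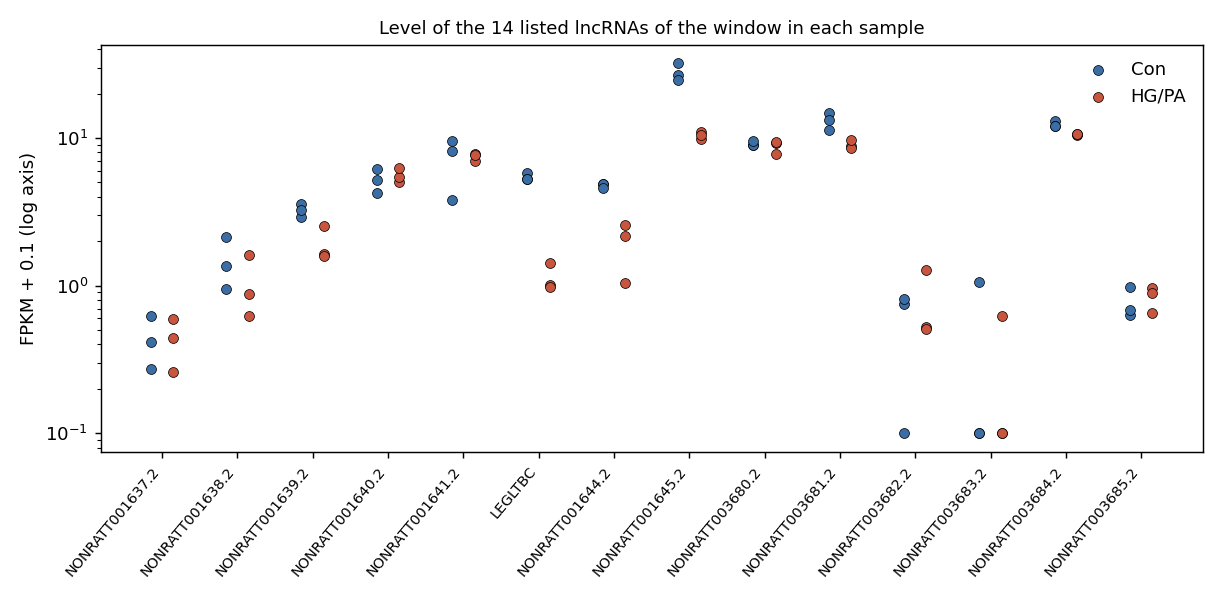
FPKM + 0.1 (log axis) of the 14 lncRNAs of the window in each sample, in order of start position, with Con in blue and HG/PA in red. The widest gaps between the colours are at LEGLTBC, NONRATT001644.2 and NONRATT001645.2, those at NONRATT001639.2, NONRATT003681.2 and NONRATT003684.2 are narrower, and points at 0.1 are samples with no fragment.

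Besides NONRATT001645.2, 3 neighbours had all HG/PA samples below all Con samples, which makes 4 of the 11 tested, where 16.2% of all tested lncRNAs had this order. None had the reverse order, which 7.44% of all tested lncRNAs had. The same 4 had an unadjusted p below 0.05 with a lower value in HG/PA, against 11.8% of all tested lncRNAs. This count was between 2 and 4 in the 15 other fits, and it was 2 without Con 1, HG/PA 2 or HG/PA 3. NONRATT001645.2 and NONRATT003681.2 had a p below 0.05 in all 15, NONRATT001639.2 in 12 and NONRATT003684.2 in only 3. NONRATT003681.2 had 11.2, 14.6 and 13.1 FPKM in Con and 8.70, 8.49 and 9.62 FPKM in HG/PA. This difference of -0.52 on the log2 scale (SE 0.13) had an adjusted p of 0.098 by limma and did not pass the threshold. NONRATT003684.2 had 12.8, 11.9 and 12 FPKM in Con and 10.4, 10.5 and 10.6 FPKM in HG/PA, a log2 difference of -0.22 (SE 0.09) with an adjusted p of 0.285 by limma. Taken relative to the overall median it was -0.11, and after rescaling by the median of ratios it was -0.09. NONRATT001639.2, named after its values were seen, had 3.48, 2.82 and 3.15 FPKM in Con and 2.45, 1.55 and 1.5 FPKM in HG/PA and a log2 difference of -0.78 (SE 0.25) with an adjusted p of 0.17 by limma.

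NONRATT003680.2, the next listed lncRNA beyond NONRATT001645.2, is an unspliced transcript of 1040 nt that lies 234.7 kb from LEGLTBC. It had 8.80, 8.85 and 9.44 FPKM in Con and 7.67, 9.13 and 9.26 FPKM in HG/PA, and the groups overlapped. Its log2 fold change was -0.06 with a 95% interval of -0.34 to 0.23, and its sign turned after rescaling by the median of ratios (0.070). That interval does not reach the 2-fold size and lies wholly above the interval of NONRATT001645.2. On the other side of the gap, NONRATT001641.2 had 9.5, 8.01 and 3.68 FPKM in Con and 7.70, 6.93 and 7.58 FPKM in HG/PA. Its groups overlapped, its log2 fold change was 0.17 (95% interval -0.63 to 0.98), and the sign turned without Con 3 (-0.23). NONRATT001638.2 spans 57.8 kb with a transcript of 752 nt, and its span covers 2 other listed lncRNAs, NONRATT001639.2 and NONRATT001640.2, and overlaps NONRATT001641.2 and NONRATT001637.2 in part. It had 1.26, 2.02 and 0.849 FPKM in Con and 0.525, 0.777 and 1.51 FPKM in HG/PA, with overlapping groups and a 95% interval of -1.65 to 0.57 for the log2 fold change.

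The listed neighbours differed widely in how much their data could show. In 4 of the 12 the mean was under 10 fragments per sample, namely NONRATT001637.2, NONRATT003682.2, NONRATT003683.2 and NONRATT003685.2. NONRATT003682.2 had fragment numbers of 5, 0 and 5 among Con and of 3, 9 and 3 among HG/PA. Its log2 fold change had a 95% interval of -1.27 to 2.92, which does not exclude a 2-fold difference in either direction. NONRATT003683.2 was the neighbour that did not enter the fit, with 9 fragments in Con 2, 5 in HG/PA 1 and 0 in the other 4 samples. Where it was at 0, a level of up to 0.29 to 0.32 FPKM is allowed by 3 fragments. It shares its listed start with NONRATT003681.2 and NONRATT003682.2, so fragments in their common part may have been divided among them.

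**Figure D3:**
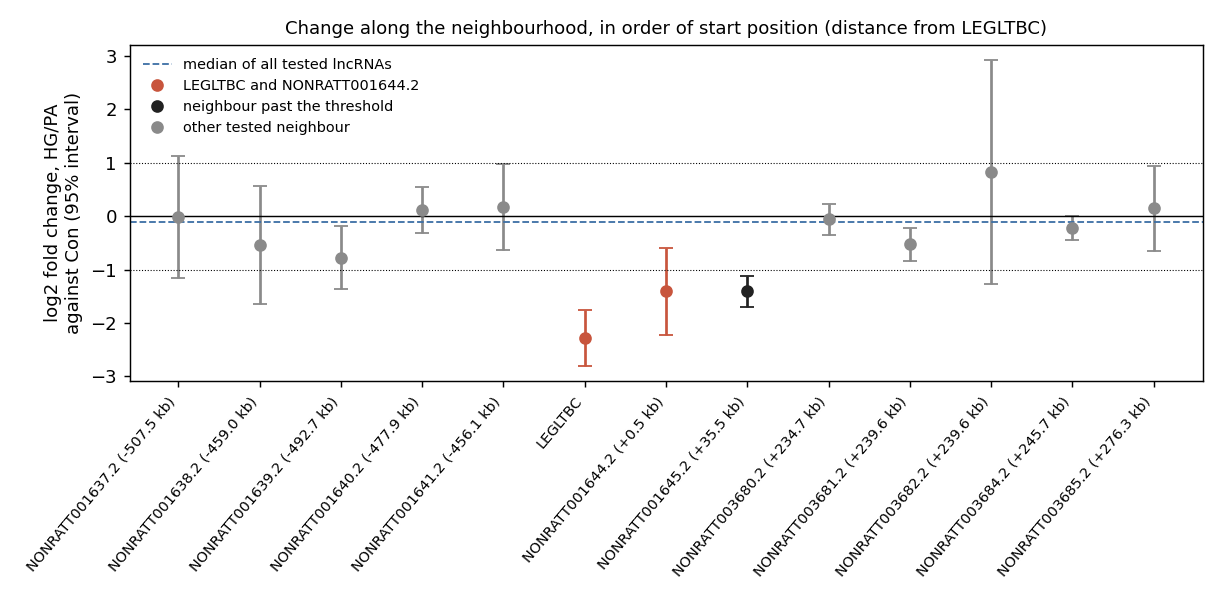
Log2 fold change (HG/PA against Con, on log2(FPKM + 0.1)) with 95% intervals for the 13 fitted lncRNAs of the window, in order of start position and labelled with the distance from LEGLTBC in kb. LEGLTBC at -2.28, NONRATT001644.2 at -1.41 and NONRATT001645.2 at -1.41 lie below the dotted line of a 2-fold fall, and the other points lie above it, with the dashed line at the median of all tested lncRNAs (-0.11).

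Summed over the 12 neighbours, the fragments per 1000000 of the library were 69.1, 67.7 and 75.5 in Con 1, 2 and 3 and 40.0, 42.3 and 43.4 in HG/PA 1, 2 and 3. The means were 70.8 ± 4.16 in Con and 41.9 ± 1.74 in HG/PA (SD, n = 3 each), a log2 ratio of -0.76. All HG/PA sums were below all Con sums (exact permutation over samples, two-sided p = 0.1, which no 3 against 3 comparison can go below). NONRATT001645.2 made up most of this difference. Without it the sums over the other 11 were 32.1, 33.6 and 31.1 in Con and 26.5, 27.2 and 28.9 in HG/PA, a log2 ratio of -0.23 (exact permutation p = 0.1, again the smallest possible). The lncRNAs listed in the window as a whole held 78.3 ± 3.99 fragments per 1000000 in Con and 43.6 ± 1.23 in HG/PA. The share of each library on all listed lncRNAs was also lower in every HG/PA sample than in every Con sample. That share was 9.67%, 9.62% and 9.29% in Con 1, 2 and 3 and 8.92%, 8.76% and 9.22% in HG/PA 1, 2 and 3. The order of the sum over the other 11 is thus not particular to the window.

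**Figure D4:**
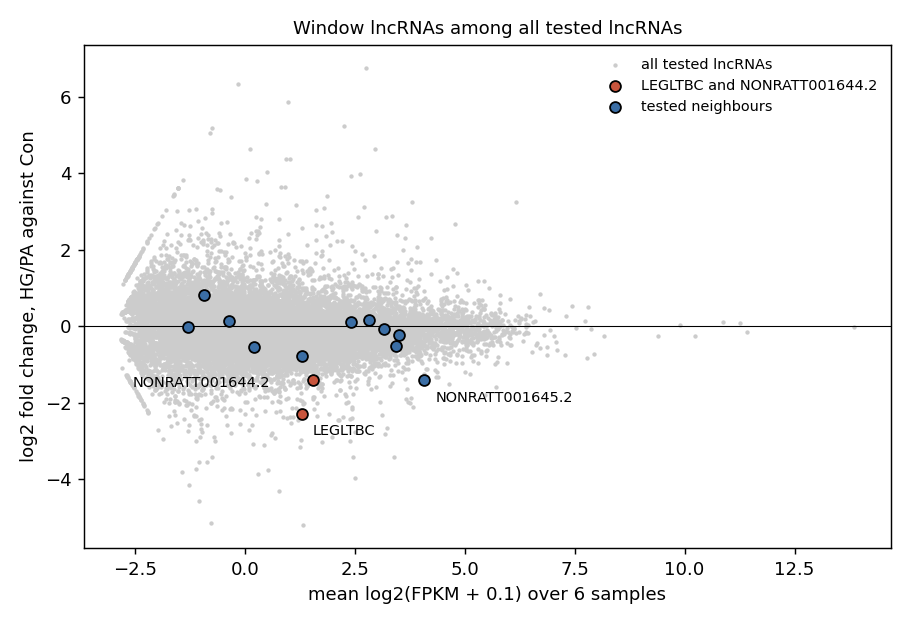
Log2 fold change (HG/PA against Con) against the mean log2(FPKM + 0.1) over the 6 samples for the 17558 tested lncRNAs (grey), with LEGLTBC and NONRATT001644.2 in red and the 11 tested neighbours in blue. NONRATT001645.2, at -1.41, lies at a higher level than LEGLTBC and near the lower edge of the grey points there, while the other 10 neighbours lie between -0.78 and 0.83.

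Likeness to LEGLTBC was measured as the root mean square difference in log2(FPKM + 0.1) over the 6 samples, so that both level and difference between conditions count. The 5 lncRNAs most like it were NONRATT019469.2 (0.33), NONRATT022556.2 (0.39), NONRATT006369.2 (0.39), NONRATT020271.2 (0.45) and NONRATT024184.2 (0.47). None is on chromosome 1, which holds only 2121 of the 17558 tested lncRNAs. Their HG/PA values rested on few fragments, from 4 in HG/PA 1 for NONRATT024184.2 to 13 in each HG/PA sample for NONRATT006369.2. NONRATT019469.2, on chromosome 3, had 4.52, 5.18 and 5.36 FPKM in Con and 1.18, 0.91 and 1.51 FPKM in HG/PA. NONRATT006369.2, on chromosome 10, had 7.71, 7.67 and 5.69 FPKM in Con and 1.33, 1.23 and 1.28 FPKM in HG/PA. NONRATT024184.2, on chromosome 6, had 4.15, 6.94 and 5.23 FPKM in Con and 0.67, 0.93 and 1.12 FPKM in HG/PA. The study overexpressed NONRATT024184.2 in the same preliminary experiments as LEGLTBC and reported no obvious effect of it on cell death under HG/PA. NONRATT001644.2 ranked 19 of the 17557 others by this measure, with a difference of 0.58. Both members were selected on these same values, so this rank is a description only. NONRATT001645.2 ranked 13340, because its level is several times that of LEGLTBC in every sample.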

How the data were processed

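The authors extracted total RNA from INS-1 cells grown in medium with 11.1 mM glucose (Con) or treated with HG/PA, prepared strand-specific libraries, cleaned the reads with seqtk (rRNA, adapters, low quality), mapped with HISAT2 to Rnor_6.0 and ran StringTie against a reference annotation. The deposited tables give FPKM per lncRNA, 1 library each, with transcript length as another column. In every library the products of FPKM and length were whole multiples of the value of 1 fragment (tolerance 0.1 step), which gave fragment numbers and totals of 12491547 to 13770879 per library, of which 8.76% to 9.67% lay on listed lncRNAs. Fragments of samples of 1 group differed by more than counting noise (over lncRNAs with at least 10 fragments, chi-square per lncRNA had a mean of 7.43 to 10.7 and a median of 0.81 to 0.87, where counting alone gives a median of 0.455).

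FPKM are not counts, so limma 3.58.1 in R 4.3.3 (lmFit, eBayes with a trend) was applied to log2(FPKM + 0.1). The fit took lncRNAs that reached 0.1 FPKM in 3 or more of the 6 samples, without further scaling or a block. It was first run on simulated fragments. Their replicate spread was fixed and not taken from these data, so that run checked the code only. Adjusted p-values are Benjamini-Hochberg values over all 17558 tested lncRNAs. Tables were made with Python 3.11.15, pandas 2.3.3 and scipy 1.17.1. The members, the window and the tests were chosen with earlier results of these data known. The rule for named lncRNAs took both members, neighbours past the unadjusted threshold, the 2 nearest on each side, the 3 with the highest mean FPKM, and the 5 most like LEGLTBC. Alternatives were other pseudocounts, filters, scalings, window sizes, a replicate block, no trend, samples left out singly, and limma-voom on the recovered fragments. A gene table of assembly GRCr8 was not used for positions, because its build differs.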

Additional observations from a re-analysis of the deposited data

How the results depend on the processing

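NONRATT001645.2 kept its direction and stayed past the unadjusted threshold in all 15 other fits, with a log2 fold change between -1.49 and -1.28 and limma's adjusted p between 0.0030 and 0.059. The adjusted p was above 0.05 in 1 of these, the fit with the replicate block (0.059), where 0 neighbours passed the adjusted threshold. Deviations of samples with the same replicate number had correlations from -0.032 to -0.014 over the tested lncRNAs. Many of these lncRNAs are low, and counting noise can hide a shared batch, so this does not settle whether the numbers mark pairs. With the replicate block 6 lncRNAs in the whole table were lower at an adjusted p below 0.05, against 146 without it. The number of all tested lncRNAs lower at the adjusted threshold was from 37 to 88 with each sample left out and from 84 to 155 in the remaining alternatives, and at the unadjusted threshold it was 164 with a pseudocount of 1, 422 where 3 samples had to reach 1 FPKM and from 471 to 771 elsewhere, against 685. LEGLTBC had a log2 fold change of -1.65 with a pseudocount of 1 and between -2.46 and -2.15 otherwise (-2.46 to -2.18 with each sample left out). For NONRATT001644.2 it was between -1.67 and -1.02 in every alternative. The values of NONRATT003680.2 crossed 0, at 0.070 with median-of-ratios scaling, 0.046 with quantile normalization and from -0.11 to 0.027 with each sample left out, and those of NONRATT001641.2 were from -0.23 to 0.44 with each sample left out. The log2 ratio of the summed neighbours (-0.76) was -1.42 within 100 kb of LEGLTBC, where NONRATT001645.2 is the only neighbour, -0.485 within 1000 kb, -0.23 without NONRATT001645.2 and -0.67 per fragment on listed lncRNAs. It was from -0.79 to -0.71 with each sample left out and -0.76 with the replicate block. Apart from the changes that follow from which lncRNAs are summed, the cause was not tested. Depth limits the 4 neighbours under 10 fragments per sample and NONRATT001644.2, and intervals from fragments cover counting error only.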

Other observations

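A wider search, within 1000 kb of either edge of LEGLTBC, added 3 listed lncRNAs. NONRATT003687.2, an unspliced transcript of 1941 nt at a distance of 616.5 kb, was as highly expressed in control cells as NONRATT001645.2, with 28.5, 31.3 and 35.7 FPKM in Con and 25.6, 27.8 and 28.1 FPKM in HG/PA. Its groups did not overlap, in the order that 16.2% of all tested lncRNAs had. The log2 difference of -0.22 (SE 0.10) had an adjusted p of 0.32 by limma, and unlike NONRATT001645.2 it did not reach a 2-fold difference. NONRATT001634.2, at 594.3 kb on the other side, had 3.86, 3.81 and 2.12 FPKM in Con and 2.10, 1.94 and 2.44 FPKM in HG/PA, and its groups overlapped. NONRATT001635.2, at 553.9 kb, had 2.80, 2.53 and 1.40 FPKM in Con and 3.33, 2.31 and 1.33 FPKM in HG/PA, and its groups overlapped as well.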
